A study of Mus musculus with 8 samples.

Results

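The genes described here are 10 members of the system that promotes or restrains vessel growth: the ligand genes Vegfa, Vegfb and Vegfc, the receptor genes Flt1, Kdr and Flt4, the inhibitor genes Thbs1, Thbs2 and Serpinf1, and the endothelial marker Pecam1. They were chosen by symbol, and all 10 were found among the 23597 genes of the table. RNA came from mouse corneas on day 14 of scopolamine injection, which blocks muscarinic receptors and was used to induce dry eye. The 4 ICI samples came from mice that were in addition given ICI 118551, a blocker of β2-adrenergic receptors, and the 4 Scop samples from mice that were not, so both groups share scopolamine. Each sample was a pool of 4 corneas, while the sources used here give no strain, age or assignment of mice to pools. No cornea without dry eye was analysed here, so each comparison sets ICI against Scop. Nothing states that the pools came from separate experiments, so p-values reflect the spread among these 8 samples, which may be technical.

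Vascular endothelial growth factor A (Vegfa) is the main signal for the growth of blood vessels and acts largely through the receptor encoded by Kdr. Flt1 encodes a receptor that binds the products of Vegfa and Vegfb, and its secreted form is a trap for the ligand that helps to keep the cornea free of vessels. Vegfc and its receptor gene Flt4 act mainly on lymphatic vessels. Thrombospondins (Thbs1, Thbs2) and pigment epithelium-derived factor (Serpinf1) restrain endothelial cells, and Pecam1 is a surface protein of endothelial cells, platelets and some leukocytes.

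Libraries held between 34354346 and 39885822 fragments, as recovered from the steps of the deposited values. Krt12, the keratin gene that defines corneal epithelium, stood at 15845 ± 458 FPKM in the ICI libraries and 16258 ± 1467 in Scop (values with ± are mean ± SD with n = 4 here and below). FPKM divide fragments by gene length and by the size of the library, so levels of different genes can be compared. Scop replicate 3 stood apart in stromal genes: the summed level of the 15 keratocyte genes listed was 728 FPKM there and between 1826 and 2452 in the other 7 libraries. Dcn was the largest part of that sum, at 342 FPKM in Scop replicate 3. All listed genes but Col3a1 were lowest in that library, Aldh1a1 only slightly, at 93.5 FPKM against 95.1 to 118 elsewhere (both named after their values were seen). ICI replicate 1 stood apart in genes of the corneal endothelium, the inner cell layer, with a summed level of 427 FPKM over 5 genes, against 57.5 to 242 elsewhere. In pooled tissue, fewer cells of a type and less RNA per cell cannot be told apart.

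The starts of 4 of the genes are shown because they carry the most studied ligand, its decoy receptor and the inhibitors whose levels moved together. RefSeq promoter records (GRCm38.p6, the mm10 build) matched 8 of the 10 genes, and the 250 bases before the start are given on the coding strand. Capitals mark matches, on either strand, to TGACGTCA (the cAMP response element, CRE), the shorter element TGACG, the core of the hypoxia response element ACGTG, the GC box GGGCGG, the TATA box TATAAA or the NF-kB site. Each full CRE also contains the shorter element on both strands.
Vegfa, chr17:46032378-46032627, minus strand: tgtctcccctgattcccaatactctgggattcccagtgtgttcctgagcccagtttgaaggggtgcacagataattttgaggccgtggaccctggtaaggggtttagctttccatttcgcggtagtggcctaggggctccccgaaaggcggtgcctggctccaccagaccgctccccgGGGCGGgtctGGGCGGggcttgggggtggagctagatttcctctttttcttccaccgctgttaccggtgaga
Flt1, chr5:147726012-147726261, minus strand: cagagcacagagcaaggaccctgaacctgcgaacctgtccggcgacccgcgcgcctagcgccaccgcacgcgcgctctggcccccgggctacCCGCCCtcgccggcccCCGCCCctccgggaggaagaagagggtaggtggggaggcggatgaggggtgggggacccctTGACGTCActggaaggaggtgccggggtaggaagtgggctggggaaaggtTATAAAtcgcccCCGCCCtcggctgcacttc
Thbs2, chr17:14694263-14694512, minus strand: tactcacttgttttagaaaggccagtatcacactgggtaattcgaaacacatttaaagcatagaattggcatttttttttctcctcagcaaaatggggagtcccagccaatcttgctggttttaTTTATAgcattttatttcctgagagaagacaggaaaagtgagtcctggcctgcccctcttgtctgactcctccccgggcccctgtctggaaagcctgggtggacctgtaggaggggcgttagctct
Serpinf1, chr11:75422624-75422873, minus strand: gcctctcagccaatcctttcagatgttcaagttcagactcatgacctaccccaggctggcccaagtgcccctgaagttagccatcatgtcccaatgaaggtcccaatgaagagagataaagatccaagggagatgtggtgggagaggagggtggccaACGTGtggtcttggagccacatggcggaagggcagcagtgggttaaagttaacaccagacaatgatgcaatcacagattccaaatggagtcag
The Flt1 window held 1 full CRE, 3 GC boxes and 1 TATA box, and a full CRE was in 1.55% of the 32851 promoter windows of this length. The Vegfa window shown held 2 GC boxes, a motif found in 32.7% of all windows. A further RefSeq record places another Vegfa start inside the gene, and its window (chr17:46025164-46025413, not printed) held 1 ACGTG core, 1 TGACG element that overlaps it and 1 GC box. Of the inhibitors, the Serpinf1 window held 1 ACGTG core (16.6% of all windows) and the Thbs2 window 1 match to TATAAA (12.4%), and neither held a GC box. The Thbs2 match was on the opposite strand, at -126 from the start, whereas that of Flt1 was on the coding strand at -31. The shorter element TGACG occurred in 17.8% of windows and the NF-kB site in 0.356%. These matches describe letters only.

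The inhibitors were the most abundant members and the receptors Flt4 and Flt1 the least. Mean levels over the 8 libraries ran from 95 FPKM for Serpinf1 through 33.2 for Thbs1, 16.8 for Thbs2, 9.03 for Vegfb, 3.76 for Kdr, 3.6 for Vegfa, 1.19 for Pecam1 and 1.01 for Vegfc down to 0.273 for Flt4 and 0.119 for Flt1. Most neighbours in this order kept it within libraries, with Serpinf1 above Thbs1, Thbs1 above Thbs2 and Vegfa above Pecam1 in 8 of 8. Kdr and Vegfa did not differ beyond their spread (Kdr higher in 6 of 8 libraries), nor did Pecam1 and Vegfc (5 of 8). Thbs2 exceeded Vegfb in 7 libraries, with Scop replicate 3 the exception, and Flt4 exceeded Flt1 in 7. Only the steps from Vegfb to Kdr and from Vegfc to Flt4 had ranges that did not overlap at all.

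**Figure D1:**
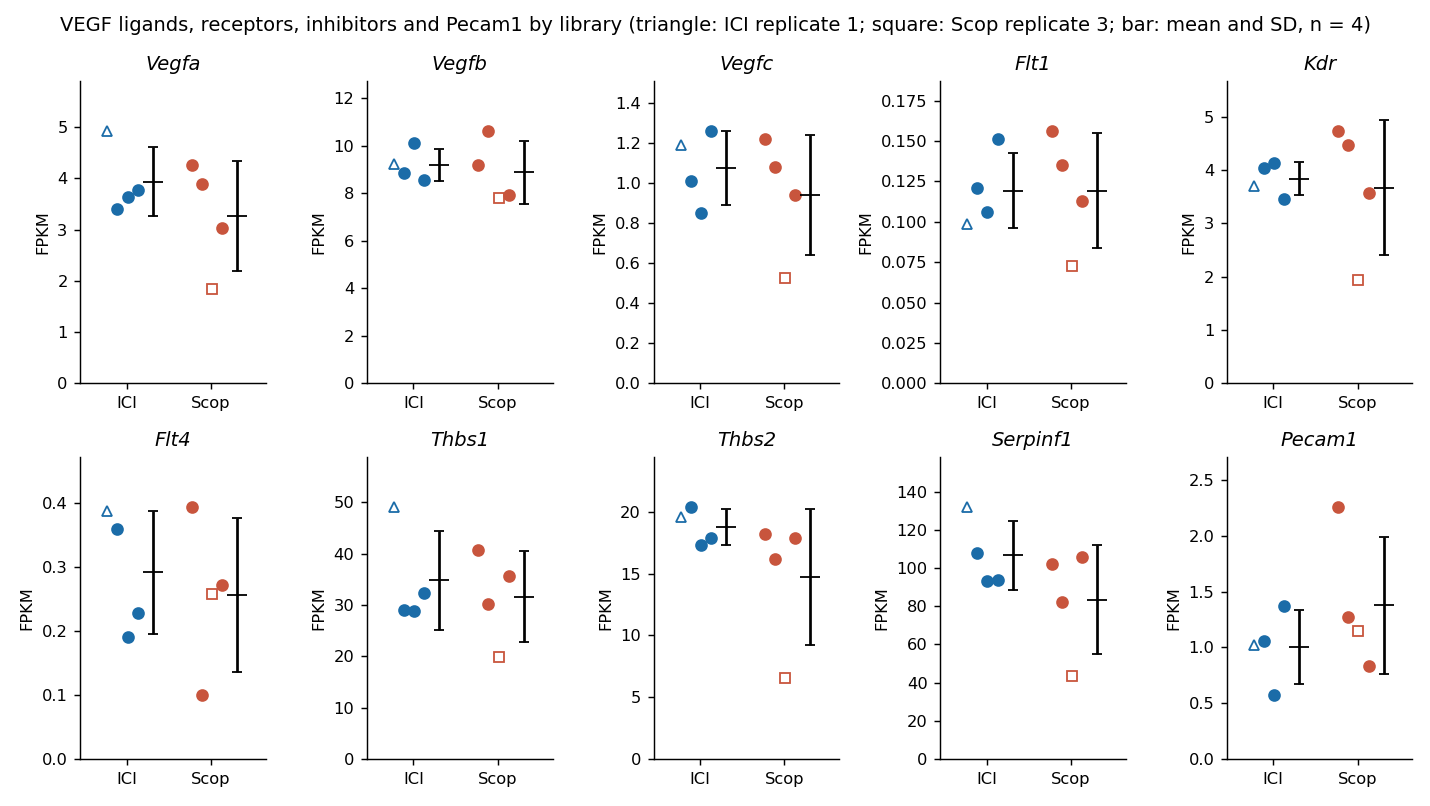
FPKM of the 10 genes (vertical axes, from 0) in the 4 ICI and 4 Scop libraries, with the mean and SD of each group as a bar. The open square, Scop replicate 3, is the lowest of the 8 libraries for 8 of the 10 genes, and the open triangle, ICI replicate 1, is the highest for Vegfa, Thbs1 and Serpinf1.

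No member changed with ICI 118551 by the test over all genes. At an adjusted p under 0.05 limma called 0 of the 8 members with enough signal to test (a mean of at least 0.5 FPKM), against 0% of all 12100 genes tested. At an unadjusted p under 0.05 it counted 0 members against 12.0% of all genes, and 0 of the 10 members had groups that did not overlap, against 6.98% of genes tested. The differences of 7 tested members were positive and that of Pecam1 negative, where 44.6% of all genes had a positive value. The median log2 fold change of the 8 was 0.13, and that of all genes -0.02. Fold changes here are ICI minus Scop of log2(FPKM + 1), and the added 1 makes the changes of low genes look smaller. Of all genes with an unadjusted p under 0.05, 552 were higher and 903 lower in ICI, against 734 and 676 after median-ratio scaling and 728 and 717 after quantile normalisation.

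**Figure D2:**
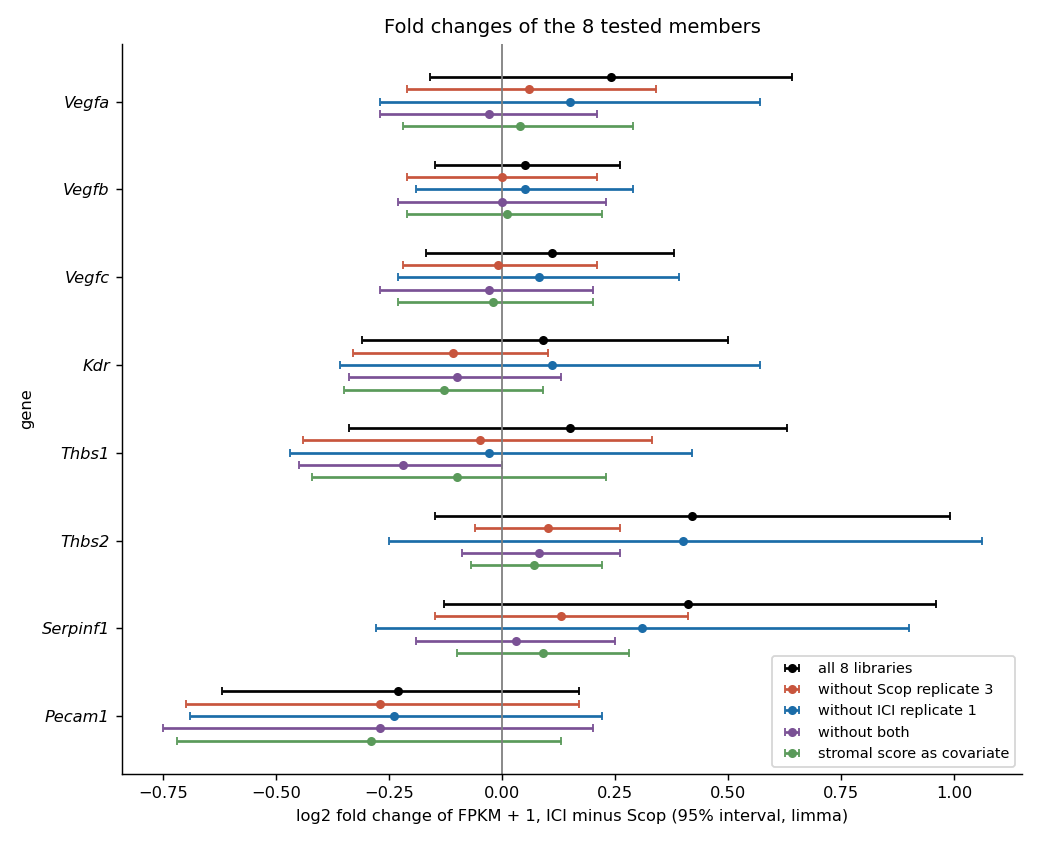
Log2 fold changes of FPKM + 1, ICI minus Scop (horizontal axis), of the 8 tested genes with their 95% intervals from limma, over all libraries, without Scop replicate 3, without ICI replicate 1, without both, and with the stromal score as a covariate. The values of Thbs2 (0.42) and Serpinf1 (0.41) with all libraries are 0.10 and 0.13 without Scop replicate 3.

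Among the ligands, Vegfa (ENSMUSG00000023951.17, chromosome 17, 46016993 to 46032369, minus strand) stood at 4.92, 3.41, 3.64 and 3.78 FPKM in ICI replicates 1 to 4 and at 4.27, 3.89, 1.85 and 3.03 in Scop. The groups overlapped, with ICI replicate 1 the highest and Scop replicate 3 the lowest. The log2 fold change was 0.24 (SE 0.18, 95% interval -0.16 to 0.64, limma adjusted p = 0.617). Without Scop replicate 3 it was 0.06, without ICI replicate 1 it was 0.15, and without both -0.03. The deposited value pools all isoforms of a gene, and the GENCODE annotation of this build lists 8 protein-coding transcripts of Vegfa, so forms of different matrix binding were not separated.

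Vegfb, whose product binds the Flt1 receptor but not that of Kdr, was the steadiest member. It lay at 9.23, 8.86, 10.1 and 8.55 FPKM in ICI and at 9.17, 10.6, 7.80 and 7.92 in Scop, and its coefficient of variation (CV, the SD as a percent of the mean) over the 8 libraries was 10.8%. Its log2 fold change was 0.05 (SE 0.09, 95% interval -0.15 to 0.26, limma adjusted p = 0.841). Scop replicate 3 was again the lowest, but at 84.6% of the mean of the other Scop libraries. For Vegfa that figure was 49.5% and for Vegfc 48.4%.

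Vegfc, the lymphatic growth factor gene (chromosome 8, 54077606 to 54187096), was near 1 FPKM. It measured 1.19, 1.01, 0.850 and 1.26 in ICI and 1.22, 1.08, 0.524 and 0.943 in Scop, from 34 to 92 fragments per library. The fragment count of Scop replicate 3 gives an exact Poisson 95% interval of 0.363 to 0.732 FPKM, which covers counting error only. That interval lies below the value of each other library. Its log2 fold change was 0.11 (SE 0.12, 95% interval -0.17 to 0.38, limma adjusted p = 0.760), and -0.01 without Scop replicate 3.

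Of the receptors only Kdr was high enough to test. Kdr (chromosome 5, 75932827 to 75978458, minus strand), the main signalling receptor of Vegfa, was at 3.71, 4.05, 4.14 and 3.46 FPKM in ICI and at 4.73, 4.47, 1.93 and 3.57 in Scop. Scop replicates 1 and 2 thus exceeded all ICI libraries while Scop replicate 3 lay below them all. Between groups the log2 fold change was 0.09 (SE 0.18, 95% interval -0.31 to 0.50, limma adjusted p = 0.863), and -0.11 without Scop replicate 3. The Vegfa level was close to that of Kdr in most libraries, from 84.2 to 133 FPKM of Vegfa per 100 of Kdr, with the highest ratio in ICI replicate 1.

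Flt1 and Flt4 were below the level needed for the test across genes. Flt1 (chromosome 5, 147561604 to 147726011) was at 0.0985, 0.121, 0.106 and 0.151 FPKM in ICI and 0.156, 0.135, 0.0728 and 0.113 in Scop, on 35 to 87 fragments. Group means were equal at 0.119 (exact permutation test on log2(FPKM + 1), two-sided, p = 1). The lengths behind the deposited values were read back from the recovered fragments, and that of Flt1 was 13993 bases. Fragments of the membrane and the secreted form were pooled over that length, so a level of the secreted trap cannot be read from this value.

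Flt4 (chromosome 11, 49609263 to 49652739) lay at 0.387, 0.359, 0.191 and 0.227 FPKM in ICI and at 0.393, 0.1, 0.258 and 0.271 in Scop. Scop replicate 2 was the lowest, with 23 fragments and an exact Poisson 95% interval of 0.0634 to 0.15 FPKM, below the interval of the highest library, Scop replicate 1 (0.317 to 0.482). The groups overlapped (exact permutation test, two-sided, p = 0.657, where 4 against 4 samples cannot give a p below 0.0286). Flt4 was one of the 2 members that were not lowest in Scop replicate 3, at 101% of the mean of the other Scop libraries.

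The inhibitors Thbs2 and Serpinf1 had the largest differences of the members, and these rested on Scop replicate 3. Thbs2 (chromosome 17, 14665500 to 14694235, minus strand), a matrix protein that restrains vessel growth, was at 19.6, 20.4, 17.3 and 17.9 FPKM in ICI and at 18.2, 16.2, 6.57 and 17.9 in Scop. Only Scop replicate 3 lay far from the rest, at 37.7% of the mean of the other Scop libraries. The log2 fold change was 0.42 (SE 0.26, 95% interval -0.15 to 0.99, limma adjusted p = 0.540). Without Scop replicate 3 it was 0.10 (SE 0.07, 95% interval -0.06 to 0.26, limma adjusted p = 0.553).

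Serpinf1 (chromosome 11, 75409769 to 75422701, minus strand), the gene of pigment epithelium-derived factor, was at 132, 108, 93.3 and 93.9 FPKM in ICI and at 102, 82.1, 43.4 and 106 in Scop. ICI replicate 1 was the highest library, and Scop replicate 3 stood at 44.9% of the mean of the other Scop libraries. The log2 fold change was 0.41 (SE 0.25, 95% interval -0.13 to 0.96, limma adjusted p = 0.535), the smallest adjusted p of the members. It was 0.13 without Scop replicate 3 and 0.03 without both that library and ICI replicate 1.

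Both genes were lowest in the library where keratocyte transcripts were lowest. Per 100 FPKM of the summed keratocyte list, Thbs2 measured 0.799, 0.865, 0.883 and 0.979 in ICI and 0.838, 0.884, 0.902 and 0.889 in Scop. The CV over the 8 libraries was 25.8% for the level of Thbs2 and 5.90% for this ratio, and for Serpinf1 26.7% and 9.95%. For Thbs2, Scop replicate 3 carried most of this drop: without it the CVs of level and ratio were 7.73% and 6.30%. For Serpinf1 the ratio still varied less than the level without that library, at 7.24% against 15.2%. For Vegfb the ratio varied more than the level, 44.2% against 10.8% over all libraries and 17.3% against 9.83% without Scop replicate 3. Vegfa (25.2% and 18%), Kdr (22.8% and 18.9%) and Vegfc (23.9% and 20.6%) lay between over all libraries. Without Scop replicate 3 the level and ratio of Vegfa were at 15.8% and 14.7%, and the ratio varied more than the level for Kdr (16.2% against 11.7%) and Vegfc (18.3% against 14.1%). With the mean log2 level of the keratocyte list as a covariate, the log2 fold changes of Thbs2 and Serpinf1 were 0.07 (SE 0.07) and 0.09 (SE 0.09).

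**Figure D3:**
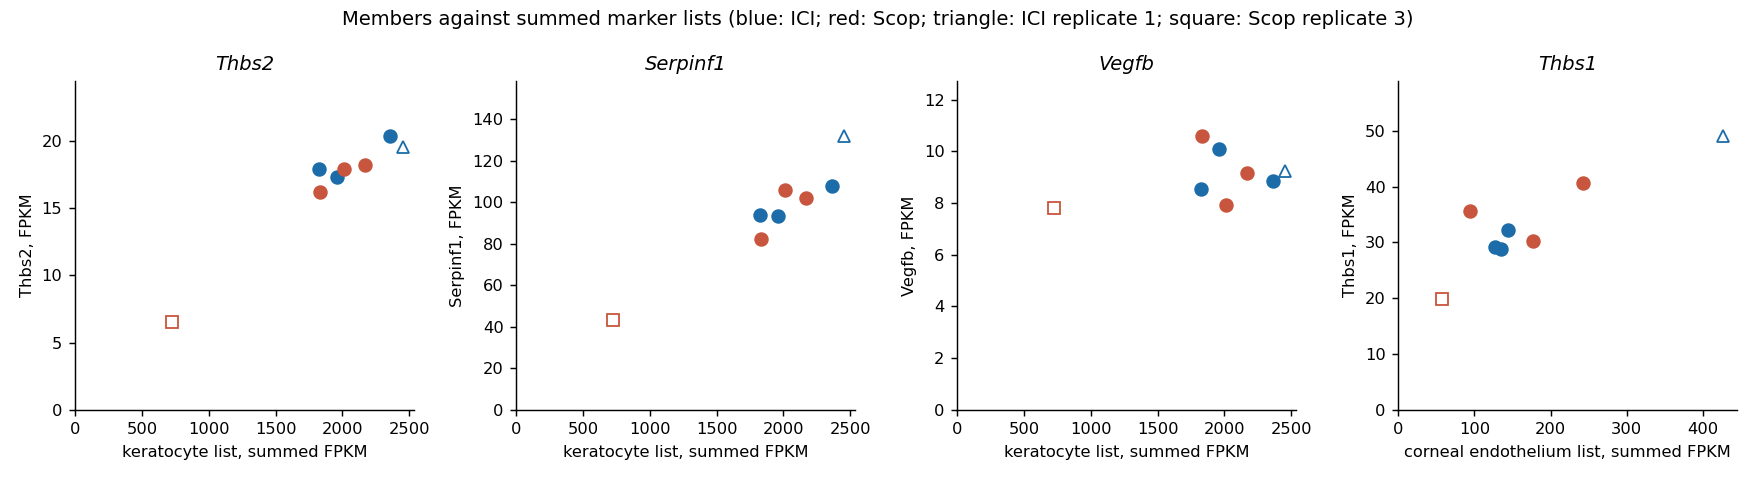
FPKM of Thbs2, Serpinf1 and Vegfb against the summed FPKM of the keratocyte list, and of Thbs1 against that of the corneal endothelium list, 1 point per library. Scop replicate 3 (open square) is low on both axes for Thbs2 (6.57 FPKM at 728) and Serpinf1 (43.4 FPKM), while Vegfb is 7.80 FPKM there.

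Thbs1 (chromosome 2, 118111876 to 118127133), a secreted matrix protein gene of the same family, differed from Thbs2 in ICI replicate 1. It measured 49.1, 29.1, 28.9 and 32.3 FPKM in ICI and 40.7, 30.3, 19.9 and 35.7 in Scop. ICI replicate 1 was 163% of the mean of the other ICI libraries for Thbs1 and 106% for Thbs2. Scop replicate 3 was the lowest library for both, for Thbs1 at 56.1% of the mean of the other Scop libraries. The CV of Thbs1 was 26.3% for its level and 24.4% for its ratio to the keratocyte sum. Without Scop replicate 3 the ratio varied less than the level, at 15.4% against 21.2%. ICI and Scop differed by a log2 fold change of 0.15 (SE 0.22, 95% interval -0.34 to 0.63, limma adjusted p = 0.813). It was -0.03 without ICI replicate 1, -0.05 without Scop replicate 3 and -0.22 without both (SE 0.10, unadjusted p = 0.0481 and limma adjusted p = 0.310), so its direction turned. Exons of Thbs1 share 208 bases with those of Gm29233, a noncoding RNA gene of the opposite strand, and reads of these bases cannot be assigned if strand was not used in counting.

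The high Thbs1 value of ICI replicate 1 coincided with high values of 4 of the 5 listed genes of the corneal endothelium. Car3, a carbonic anhydrase gene that makes up most of their sum there, stood at 285 FPKM in that library and at 20.2 to 150 in the other 7. Slc4a11, the transporter gene of that cell layer, was at 41.4 FPKM against 9.65 to 22.6. Tfcp2l1, a transcription factor gene of the list named after its values were seen, did not follow, at 0.309 FPKM in ICI replicate 1 and 0.231 to 0.505 elsewhere. Of the 5 listed genes none was at 0 in any library, and the summed level ran from 127 to 427 FPKM in ICI and from 57.5 to 242 in Scop. With the mean log2 level of this list as a covariate, the log2 fold change of Thbs1 was -0.05 (SE 0.11), and whether these cells gave the Thbs1 signal was not tested.

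**Figure D4:**
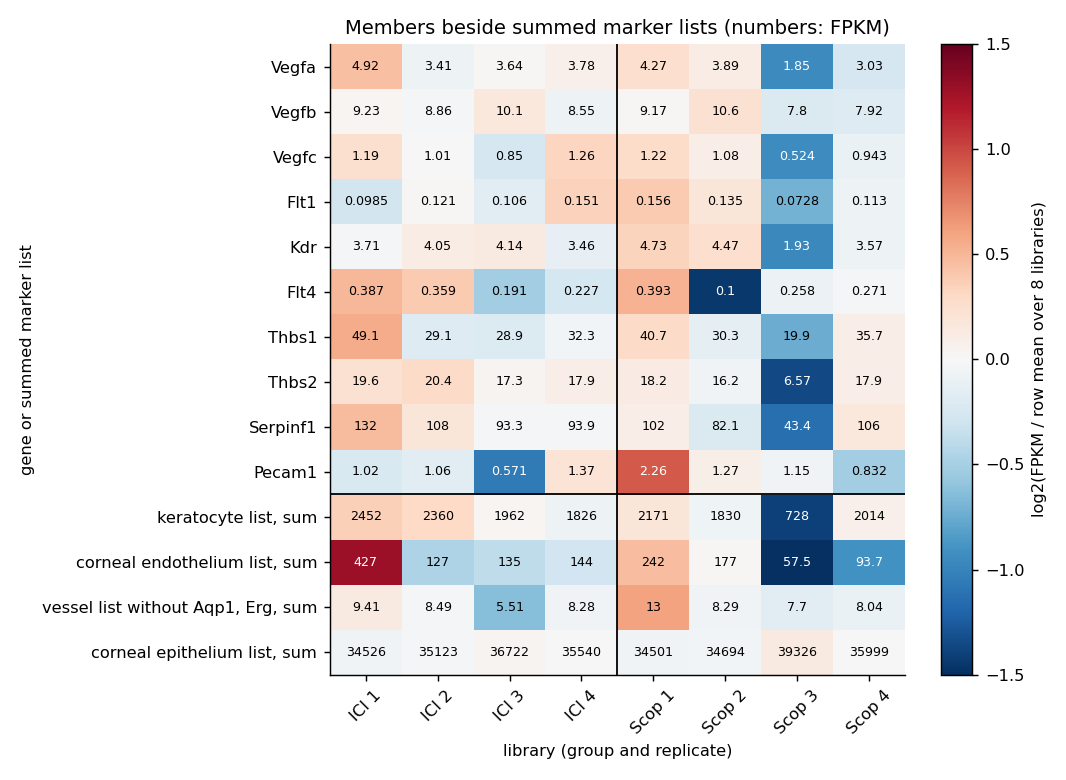
FPKM (numbers) of the 10 genes and of 4 summed marker lists in each library, coloured by the log2 ratio to the row mean over the 8 libraries. In Scop replicate 3, Vegfa, Vegfc, Kdr, Thbs2 and Serpinf1 are low together with the keratocyte sum (728 FPKM), and the epithelial sum (39326 FPKM) is the highest of the 8.

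Scop replicate 3 was the lowest library for 8 of the 10 members, all but Flt4 and Pecam1. The same library was the lowest for 24.9% of all genes tested. ICI replicate 1 was the highest for 3 members, against 11.8% of all genes tested. On the log2(FPKM + 1) scale, which shrinks the spread of low genes such as Pecam1 and Flt4, Thbs2, Serpinf1 and Thbs1 had the highest SD among the members (0.48, 0.47 and 0.37). For these 3, the genes of most similar profile over the 8 libraries were sought among 10632 genes, by the root mean square difference of standardised log2 values. Nearest to Thbs2 were Dcn and Lum, proteoglycan genes of the stroma, and Srpx (differences of 0.129, 0.130 and 0.146 SD, where the median gene had 1.35). Nearest to Serpinf1 were Bgn, another proteoglycan gene, Lama2, a laminin chain gene, and Itm2c (0.0972, 0.122 and 0.128 SD). Thbs1 had no neighbour as close, with Npr3, a natriuretic peptide receptor gene, Emilin1, an elastic fibre protein gene, and Cers5, a ceramide synthase gene, at 0.216, 0.223 and 0.241 SD.

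Pecam1 (chromosome 11, 106654217 to 106750628, minus strand) was the only tested member with a negative value. It lay at 1.02, 1.06, 0.571 and 1.37 FPKM in ICI and at 2.26, 1.27, 1.15 and 0.832 in Scop. Scop replicate 1 was the highest of the 8 libraries and ICI replicate 3 the lowest, and the other values mixed. Its log2 fold change was -0.23 (SE 0.18, 95% interval -0.62 to 0.17, limma adjusted p = 0.639), and -0.06 without Scop replicate 1. The CV of 41.9% over the 8 libraries was the highest of the members, and counting error alone would give 8.71%.

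Most other genes of vessel cells were low. Cdh5, the cadherin of endothelial junctions, measured 0.635, 0.438, 0.157 and 0.434 FPKM in ICI and 0.976, 0.371, 0.395 and 0.591 in Scop, and like Pecam1 was highest in Scop replicate 1 and lowest in ICI replicate 3. Of the 18 vessel genes listed, 0 were at 0 in every library and 2 in some. The summed level was 203 to 358 FPKM in ICI and 107 to 281 in Scop, but most of it came from Aqp1, a water channel gene that stromal cells and corneal endothelium also express (233 ± 65.9 and 195 ± 71.8), and from Erg, an endothelial transcription factor gene (15.6 ± 2.71 and 13.8 ± 3.95). Erg was lowest in Scop replicate 3 (8.84 FPKM), unlike Cdh5 and Pecam1, and which cells gave it was not tested. Without Aqp1 and Erg, a split made after their values were seen, the summed level was 5.51 to 9.41 in ICI and 7.70 to 13 in Scop. Pecam1 ranged from 13.8 to 59.5 FPKM per 100 of Kdr.

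Lymphatic markers overlapped between the groups. Ccl21a, after Pdpn the highest gene of the lymphatic list, was at 5.31 ± 1.38 FPKM in ICI and 4.58 ± 1.07 in Scop. Lyve1, a receptor of lymphatic endothelium and macrophages, was at 0.542 ± 0.115 and 0.510 ± 0.0993 FPKM, and Prox1, the transcription factor gene that defines lymphatic endothelium, at 0.0312 ± 0.0140 and 0.0484 ± 0.0337 on 5 to 31 fragments. Emcn, a sialomucin gene of capillaries and veins, was at 0.778 ± 0.160 and 0.783 ± 0.433 FPKM. The platelet list, another source of Pecam1 and Thbs1, summed to 5.78 to 6.4 FPKM in ICI and 4.66 to 6.63 in Scop. Its highest genes were Gp1bb (2.72 ± 0.197 against 2.39 ± 0.441), Itga2b (2.34 ± 0.147 against 1.97 ± 0.111) and Pf4 (0.629 ± 0.373 against 1.17 ± 0.732). Itga2b was higher in ICI without overlap, as were 2.63% of all genes tested, and did not pass (log2 fold change 0.17, SE 0.07, limma adjusted p = 0.367). Gp1ba, named after its values were seen, was at 0 in every library. The myeloid list summed to 60.5 to 69.8 and 50.4 to 71.4. Most of it came from Itgam, Lyz2 and Cd68, with means of 25.5, 16.2 and 9.9 FPKM over the 8 libraries. The other listed genes averaged from 0.103 FPKM (Ptprc) to 3.05 (C1qa), both named after their values were seen. The part of platelets and myeloid cells in the Pecam1 values was not tested.

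The remaining genes of the VEGF system were low, and none of the 3 tested passed. Nrp1 and Nrp2, co-receptors of the VEGF receptors, were at 1.78 ± 0.356 against 1.77 ± 0.617 and 1.66 ± 0.497 against 1.36 ± 0.286 FPKM (ICI against Scop). Vegfd, another lymphatic ligand gene, was at 0.543 ± 0.149 against 0.523 ± 0.124, and Pgf, the gene of placental growth factor, at 0.0438 ± 0.0395 against 0.0827 ± 0.0197 on 1 to 9 fragments. Nrp2 was highest in ICI replicate 1 at 2.41 FPKM, and all the other ICI libraries lay between 1.39 and 1.44. Its log2 fold change of 0.17 was 0.04 without that library, 0.09 without Scop replicate 3 and -0.03 without both, and that of Nrp1 went from 0.02 to -0.06, -0.12 and -0.20.

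Of 83 further genes in 6 lists of the pathway, 60 could be tested and 0 passed after adjustment over all genes. At an unadjusted p under 0.05 there were 3 higher and 4 lower, 11.7% of those tested against 12.0% of all genes (4.56% higher and 7.46% lower). The 3 that were higher were all among the 12 tested angiogenic growth factors, and the 4 lower were spread over 4 lists. Groups did not overlap for 1 gene that was higher (2.63% of all genes) and 3 that were lower (4.36%).

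Among the growth factors, Adm, the gene of the vasodilator and vessel growth peptide adrenomedullin, was at 2.66, 2.37, 2.93 and 2.15 FPKM in ICI and at 3.35, 3.9, 3.6 and 3.5 in Scop. All ICI values lay below all Scop values, without passing (log2 fold change -0.38, SE 0.08, limma adjusted p = 0.179). Pdgfb, whose product recruits pericytes, was at 1.18, 1, 0.855 and 0.800 against 0.649, 0.675, 0.514 and 0.508 FPKM, again with no overlap (0.30, SE 0.09, limma adjusted p = 0.267). Ccn1, a matrix-associated inducer of vessel growth, was at 51.4 ± 12.2 against 37.3 ± 3.32 FPKM (0.43, SE 0.14), with the lowest ICI library, replicate 4, within the Scop range, and 0.24 without ICI replicate 1 and Scop replicate 3. The third gene with a higher value at an unadjusted p under 0.05 was Hbegf, an epidermal growth factor receptor ligand gene (72.9 ± 18.3 against 49.0 ± 9.89 FPKM), which was named after its values were seen. The median of this list was 0.08.

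The angiopoietin list had 4 tested genes, all with positive values (median 0.19). Angptl4, a secreted regulator of lipoprotein lipase and of vessel leakage, was at 5.92 ± 0.230 against 5.04 ± 1.16 FPKM. Angpt2, an antagonist of the Tie2 receptor that loosens vessels, ranged from 0.972 to 3.90 in ICI and from 0.456 to 2.66 in Scop, and Angptl2 was at 2.65 ± 0.647 against 2.28 ± 0.652. None of the 3 passed, and Angpt2 was highest in ICI replicate 1 and lowest in Scop replicate 3. Its log2 fold change of 0.31 was 0.06 without the first, 0.09 without the other and -0.17 without both, and that of Angptl2 went from 0.16 to 0.03 without Scop replicate 3.

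Of 20 other anti-angiogenic genes tested, 13 had positive and 7 negative values (median 0.11), and 1 was lower at an unadjusted p under 0.05. This was Sema3f, a guidance factor that binds Nrp2, at 25.3, 23.2, 24.6 and 25.0 FPKM in ICI and 28.2, 26.7, 26.8 and 25.3 in Scop (-0.12, SE 0.05, limma adjusted p = 0.398). Its groups did not overlap, though ICI replicate 1 and Scop replicate 4 were nearly equal. Sparc, a matrix protein gene, was at 151 ± 27.8 against 119 ± 35.7 FPKM, with Scop replicate 3 at 69.5. Its log2 fold change of 0.38 was 0.14 without Scop replicate 3 and 0.03 without ICI replicate 1 as well. Spry2, an inhibitor of growth factor receptor signalling, was at 7.21 ± 0.281 against 7.86 ± 0.589.

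The receptors of thrombospondins and of pigment epithelium-derived factor had a median of -0.02 over 13 tested genes. Itgav, the αv integrin gene, was at 21.5 ± 0.462 against 23.6 ± 1.10 FPKM with no overlap (-0.13, SE 0.05, limma adjusted p = 0.352). Itga6 and Itga3, integrin genes of epithelial adhesion, were at 72.9 ± 4.62 against 83.6 ± 13.8 and 34.1 ± 0.643 against 36.2 ± 1.6. Itga6 was highest in Scop replicate 3 (103 FPKM), and its log2 fold change of -0.18 was -0.08 without that library and -0.03 without both. That of Itga3 was -0.09, -0.06 and -0.05 in the same order. In the hypoxia arm that controls Vegfa, Epas1, a hypoxia-inducible factor subunit gene, was at 98.8 ± 2.50 against 113 ± 11.8 FPKM (-0.19, SE 0.07, limma adjusted p = 0.341), with Scop replicate 3 (96.0) within the ICI range. Egln3 and Egln2, prolyl hydroxylase genes that mark these factors for breakdown, were at 326 ± 14.4 against 311 ± 12.4 and 18.1 ± 1.66 against 19.1 ± 0.908, with Egln2 at a log2 fold change of -0.08 and at -0.05 without Scop replicate 3, and the median of the 8 tested genes was -0.01.

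**Figure D5:**
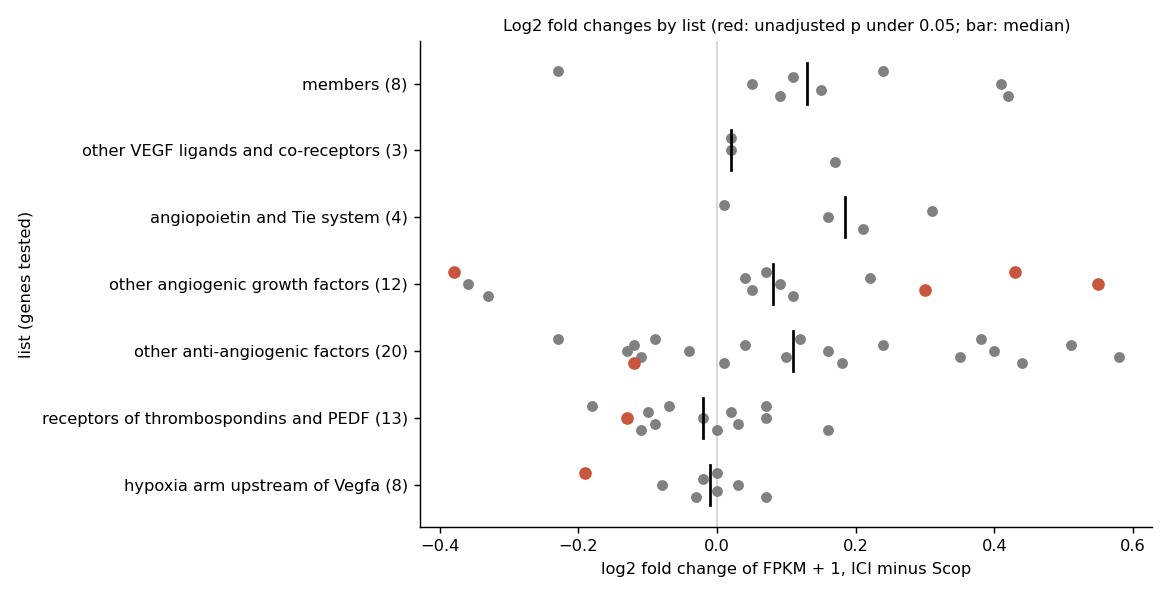
Log2 fold change of FPKM + 1, ICI minus Scop (horizontal axis), for the 8 tested members and the 60 tested genes of 6 further lists, 1 point per gene with the median of each list as a bar and genes at an unadjusted p under 0.05 in red. No member is red, 4 growth factor genes are, and 1 gene in each of 3 other lists.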

How the data were processed

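RNA of 8 pools of mouse corneas was analysed, 4 per group. Reads went through fastp, HISAT2 and HTSeq on mm10, per the submitters' processing notes, while versions, annotation and strandedness were not given in those sources. The authors deposited FPKM values, with no scaling between samples stated, in columns matched to samples by title. Whole fragments were recovered from the steps of these values for 99.8% of genes (relative tolerance 5e-13, whole within 0.01).

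Values were tested by two-sided moderated linear models (limma 3.58.1 under R 4.3.3, eBayes with a mean trend) of log2(FPKM + 1) for the 12100 genes averaging 0.5 FPKM or more, with Benjamini-Hochberg adjustment over all of them, and the fit was tested on simulated data. Exact permutation tests used scipy 1.17.1. The members and gene lists were chosen with earlier results of these data known. All 10 members are named, up to 3 genes per pathway list by smallest unadjusted p, all genes of the short VEGF list, and per marker list at most 3 of highest level plus Cdh5, Emcn, Lyve1 and Prox1. Names outside the rule are given as chosen after their values were seen (Gp1ba and Tfcp2l1 among them). Alternatives were pseudocounts of 0.1 and 5, other filters, median-ratio and quantile scaling, robust estimation, limma-voom on recovered fragments, a stromal covariate, a replicate block and the omission of each library in turn. A corneal endothelial covariate and leaving out 2 libraries together were chosen after seeing the data, as was the vessel list without Aqp1 and Erg. Gene positions are from GENCODE M21 (GRCm38), and the summed lists of red blood cell (2.21 to 7.14 FPKM in ICI, 2.17 to 6.76 in Scop), pericyte (33.0 to 38.5 and 33.9 to 41.6), lymphatic (57.5 to 66.3 and 44.0 to 58.7) and conjunctival genes (1195 to 1262 and 1117 to 1864) were also computed.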

Additional observations from a re-analysis of the deposited data

Results flagged for a closer look

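In 78 groups of 4 libraries examined, covering the members, the named pathway genes and the summed marker lists, 4 held a library whose gap to the nearest exceeded Dixon's 95% critical value, which chance alone passes in about 1 group of 20. Thbs1 in ICI replicate 1, at 49.1 FPKM, was far from the nearest ICI library at 32.3. Nrp2 in the same library was at 2.41 FPKM against 1.44. The summed corneal endothelium list was 427 FPKM there against 144. The summed lymphatic list was lowest in Scop replicate 3, at 44.0 FPKM against 57.4. Most of this sum is Pdpn (55.0 ± 2.77 in ICI and 48.9 ± 6.53 in Scop), which epithelial cells also express. Pdpn was lowest in Scop replicate 3 (39.3 FPKM), where the epithelial sum (39326 FPKM) was the highest, and which cells gave Pdpn was not tested.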

How the results depend on the processing

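The tested members had no call at an adjusted p under 0.05 under any alternative run, limma-voom on recovered fragments included, with their adjusted p between 0.310 (Thbs1) and 0.998 (Vegfb). At an unadjusted p under 0.05 the count of members was 0 except 1 with the replicate block (Serpinf1) and 1 without both ICI replicate 1 and Scop replicate 3 (Thbs1). Over all genes the count of calls was 0, and 1 with the stromal score as a covariate, 15 without both libraries, and 0 to 6 when 1 library was left out (1 without Scop replicate 1, 1 without Scop replicate 3 and 6 without Scop replicate 4). Whether same-numbered samples pair is not stated, and so few samples cannot settle it. Correlations of their deviations were 0.287, -0.00927, 0.138 and 0.0769, and not every sample correlated best with its own number. With the replicate block 1512 genes had an unadjusted p under 0.05, against 1455 without it, of which 552 were higher and 903 lower.

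Directions turned as follows on the log2 scale, and the cause was not tested. With the stromal score, Vegfc was -0.02, Kdr -0.13, Thbs1 -0.10 and Nrp1 -0.16. With the corneal endothelial score, Kdr was -0.02, Thbs1 -0.05, Nrp1 -0.11 and Angpt2 -0.01. Without Scop replicate 3, Vegfc was -0.01, Kdr -0.11, Thbs1 -0.05 and Nrp1 -0.12, and without ICI replicate 1 Thbs1 was -0.03 and Nrp1 -0.06. Without both, Vegfa was -0.03, Vegfc -0.03, Kdr -0.10, Thbs1 -0.22, Nrp1 -0.20, Nrp2 -0.03 and Angpt2 -0.17. Vegfd was -0.02 after quantile normalisation, and -0.02, -0.02 and -0.03 without ICI replicate 2, ICI replicate 4 and Scop replicate 1. When 1 library was left out, values ran from -0.01 to 0.17 for Vegfc, -0.11 to 0.21 for Kdr, -0.05 to 0.28 for Thbs1, -0.03 to 0.08 for Vegfd and -0.12 to 0.15 for Nrp1, each highest without Scop replicate 1 except Vegfd, highest without ICI replicate 1. Without a filter, Flt1 and Flt4 had values of 0.00 and 0.04. Depth limits Flt1, Flt4, Vegfc and Pecam1 most, with counting errors of 13%, 14%, 12.3% and 8.71%.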

Other observations

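Some genes of the pathway and marker lists were too low to test but had groups that did not overlap, and they are named after their values were seen. The share of such genes among all those too low to test was not computed, and among genes tested it was 6.98%. Apln, the gene of the vessel growth peptide apelin, was at 0.492, 0.521, 0.516 and 0.640 FPKM in ICI and at 0.182, 0.250, 0.129 and 0.352 in Scop, on 61 to 76 and 14 to 40 fragments. Col18a1, the collagen gene that holds the endostatin sequence, was at 0.186 ± 0.0605 against 0.314 ± 0.0717 FPKM, with its highest ICI and lowest Scop libraries nearly equal at 0.243. Kcnj8, a potassium channel gene of pericytes, was at 0.166 ± 0.0289 against 0.0359 ± 0.0339 FPKM, on 14 to 21 and 0 to 8 fragments. The pericyte list that holds it went mostly the other way: of its 5 tested genes 1 had a positive and 4 a negative value (median -0.21).

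Several other inhibitor genes were highest in ICI replicate 1, like Thbs1 and the corneal endothelium list, and were also named after their values were seen. Cnmd, the gene of chondromodulin, stood at 16.0 FPKM there, at 4.27 to 5.95 in the other ICI libraries and at 2.15 to 9.24 in Scop. Col4a3, the source of tumstatin, was at 9.55 FPKM there against 0.882 to 5.11 in the other 7 libraries, and the protease inhibitor gene Timp3 at 81.1 against 22.9 to 53.1. All 3 were lowest in Scop replicate 3, as were 24.9% of all genes tested, while 11.8% were highest in ICI replicate 1. As the 3 were picked for their high value in that ICI library, they say nothing on how common this is among inhibitor genes.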
